A study of Rattus norvegicus with 25 samples.

Results

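The genes described here are the 24 listed on the mitochondrial sequence among the 34322 rows of a gene count table from rat hippocampus. They were chosen as every row on the same sequence as mt-Rnr2. They comprise 2 ribosomal RNA (rRNA) genes and 22 transfer RNA (tRNA) genes. These rows held 0 of the 13 protein-coding genes of the mitochondrial genome, so those genes are not analysed here. The study set rats with a traumatic brain injury, given a thymus supplement or vehicle, against sham rats. The injury was controlled cortical impact (CCI), in which a piston strikes the exposed cortex. All 5 groups were adult male Sprague-Dawley rats of 6 to 7 weeks, with 5 polyA-selected libraries each. TD-CCI rats had the impact and a thymus supplement, TCF-CCI rats the impact and thymus cytosolic factor, and TNF-CCI rats the impact and thymus nuclear factor. TNF names that supplement here and not the cytokine. Vehicle-CCI rats had the impact and vehicle. Vehicle-sham rats had a sham operation and vehicle. The sources used here do not give the dose, the time after injury or whether each library came from its own animal. The p-values therefore measure the spread between libraries, which may be technical.

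Mitochondrial DNA is a small circle that is transcribed on both strands into long precursors. The tRNA genes lie between the other genes, and enzymes cut the precursor at the tRNAs, which frees the rRNAs and mRNAs on either side. mt-Rnr1 encodes the rRNA of the small mitochondrial ribosomal subunit and mt-Rnr2 that of the large subunit. The tRNAs carry amino acids to the same ribosome, which makes subunits of the respiratory chain. In a Trn symbol the letter after Trn names the amino acid, with a number where there are 2 tRNAs for it. Mitochondrial rRNAs carry short A tails and can pass polyA selection, while mature tRNAs are short and carry no long tail. In bulk tissue, fewer cells of a type and less RNA per cell cannot be told apart.

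On mRatBN7.2 the genes ran in the order Trnf, mt-Rnr1 (positions 68 to 1025), Trnv, mt-Rnr2 (1094 to 2664) and Trnl1 (2665 to 2739), all on the plus strand and with 0 bases between neighbours. The other tRNA genes were spread up to position 15415, 14 of the 22 on the plus strand and 8 on the minus strand. No length of the tRNA genes was below 60 or above 75 bases. Per length, the 2 rRNA genes stood at medians of 22969 (mt-Rnr1) and 27590.3 (mt-Rnr2) CPM per kilobase (CPM, counts scaled to the same library total after TMM) over the 25 libraries. Of the tRNA genes, Trns1, a serine tRNA on the minus strand, stood above both at 65269 CPM per kilobase. Trnm, the methionine tRNA, followed at 10726 and Trne, the glutamate tRNA, at 7099 CPM per kilobase. The lowest were Trnf (3.36), Trnq (7.53), Trna (16.9) and Trnv (18.6 CPM per kilobase), which code for the phenylalanine, glutamine, alanine and valine tRNAs. Trnv lies between the 2 rRNA genes with 0 bases on each side, yet had a small part of their level per length. The level per length thus spanned far more over the tRNA genes than their lengths did. The rRNA genes are listed at 958 and 1571 bases. Not divided by length, Trns1 stood below both, at a mean of 5662 CPM against 26065 (mt-Rnr1) and 56897.5 CPM (mt-Rnr2). How reads that reach past the ends of a short gene weigh on its level per length was not tested.

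Nearness to other listed genes went with part of these levels, in a grouping chosen after the values were seen. Distances were taken between listed genes only, which leave out the protein-coding genes. A gap between listed genes therefore does not mean that no gene lies there. The part of the gene listing and of the read counting in this pattern was not tested. Trnv, Trnq, Trna and Trns2 were the 4 tRNA genes with another listed gene within 3 bases on both sides, and they stood at 7.53 to 114 CPM per kilobase. Trnk, Trng, Trnr and Trne were the 4 with a listed gene within 3 bases on neither side, and they stood at 1515 to 7099. The other 14, with a listed gene that near on 1 side, ran from 3.36 (Trnf) to 65269 CPM per kilobase (Trns1). By strand, the 14 tRNA genes of the plus strand had a median of 1159 and the 8 of the minus strand 870.3 CPM per kilobase. Since the sources used here do not say whether counting used strand, reads of a minus-strand tRNA and of a transcript crossing it on the other strand cannot be told apart. A count does not tell a precursor, a cut product and a mature tRNA apart.

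**Figure D1:**
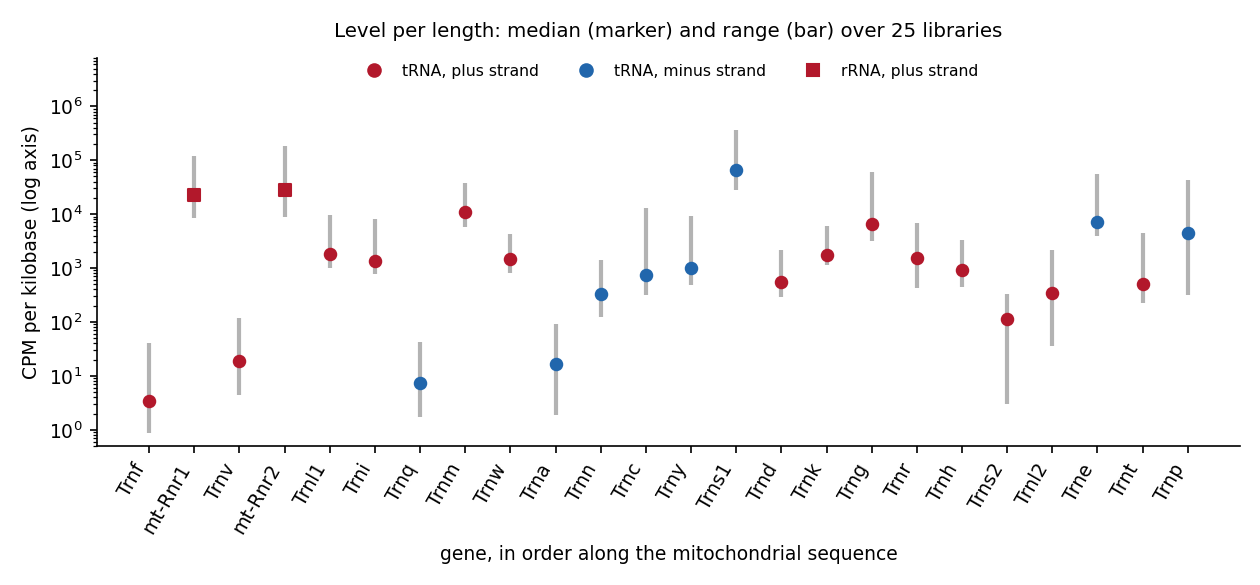
Level of each gene per length (CPM per kilobase, log axis) in the order of the genes along the mitochondrial sequence. Markers are medians and grey bars the range over 25 libraries; squares are rRNA genes, and colours mark the strand. Trns1 stands highest, at 65269, and Trnf lowest, at 3.36 CPM per kilobase.

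Library totals ran from 27290179 to 44899467 counts. Vehicle-sham 2 and 3 stood apart, with scaling factors (TMM, the trimmed mean of M-values) of 0.645 and 0.805, and the results below are given with and without them. Vehicle-sham 2 had the highest level of all 25 libraries in 24 of 24 members. TNF-CCI 3, TNF-CCI 4 and TD-CCI 5 split their tRNA counts over the genes unlike the rest, as described further on. The hippocampal neuron markers (Prox1, Wfs1, Neurod6, Zbtb20 and Bok) summed to 432 to 886 CPM in the 20 CCI libraries, against 682 to 973 CPM in the 5 sham libraries. Other neuron markers (5 genes) summed to 2397 to 6402 CPM in the 20 CCI libraries, against 3688 to 7659 CPM in the 5 sham libraries, and were at 6201 in Vehicle-sham 2 and 3688 in Vehicle-sham 3. Astrocyte markers (4 genes) summed to 2621 to 10579 CPM in the 20 CCI libraries, against 2571 to 3960.1 CPM in the 5 sham libraries. Some CCI libraries thus had a higher summed level of these 4 genes than any sham library. Red cell markers (5 genes) summed to 98.7 to 682 CPM in the 20 CCI libraries, against 52.6 to 1659 CPM in the 5 sham libraries. Vehicle-sham 2 was the highest of all in these, and Vehicle-sham 3 had 538 CPM. Markers of choroid plexus (4 genes), a tissue that borders the hippocampus, summed to 4.91 to 3814 CPM in the 20 CCI libraries, against 16.8 to 368 CPM in the 5 sham libraries. Those of microglia and macrophages summed to 71.8 to 287 CPM in CCI and 65.2 to 99.9 CPM in sham libraries. Markers of oligodendrocytes (5177 to 19209.6 CPM in CCI, 7665 to 12317 in sham), endothelium (19.4 to 48.3 and 22.2 to 28.3) and thalamus (38 to 222 and 30.6 to 61.3) overlapped. No listed marker was missing from the table or at 0 in all libraries. The part of these markers in the results below was not tested.

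The 2 rRNA genes were lower, relative to the other genes, in CCI than in sham hippocampus, and the difference rested on Vehicle-sham 2 and 3, as the means and medians show. Their summed share of counts was 6.73 ± 2.27% in the 20 CCI libraries (SD) and 11.6 ± 9.62% in the 5 sham libraries. The medians were 6.59% in CCI and 6.58% in sham, and 10 of 20 CCI libraries lay below the sham median. mt-Rnr1 had 21399.6, 20458, 22463, 24892 and 19694 CPM in TD-CCI libraries 1 to 5, and 24275, 25734, 20582, 22970.5 and 18028 CPM in TCF-CCI libraries. It had 10860.3, 26217, 13999, 11217 and 9689 CPM in TNF-CCI libraries and 20384, 23794, 32702, 34041 and 20082 CPM in Vehicle-CCI libraries, against 22004, 115742, 56524, 25882 and 7997 CPM in Vehicle-sham libraries. Vehicle-sham 2 and 3 were the 2 highest of the 25 libraries, Vehicle-sham 5 was the lowest, and the other sham libraries lay among the CCI libraries, so the groups overlapped. 4 of the 5 TNF-CCI libraries lay at 9689 to 13999 CPM, below every library of the other CCI groups, and TNF-CCI 2 lay among those groups.

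mt-Rnr2 showed a like pattern. It had 50612, 33984, 41705, 44094 and 37462 CPM in TD-CCI libraries 1 to 5, and 62290.2, 65313, 40187, 43344 and 39256 CPM in TCF-CCI libraries. It had 19872, 81592, 24687, 18130.1 and 17588 CPM in TNF-CCI libraries and 48621, 53401, 68438, 53963 and 37116 CPM in Vehicle-CCI libraries, against 41089, 282397, 158086, 45581 and 13626 CPM in Vehicle-sham libraries. Again Vehicle-sham 2 and 3 were highest and Vehicle-sham 5 lowest, and TNF-CCI 2 was the highest CCI library while the other 4 TNF-CCI libraries were the lowest CCI libraries.

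**Figure D2:**
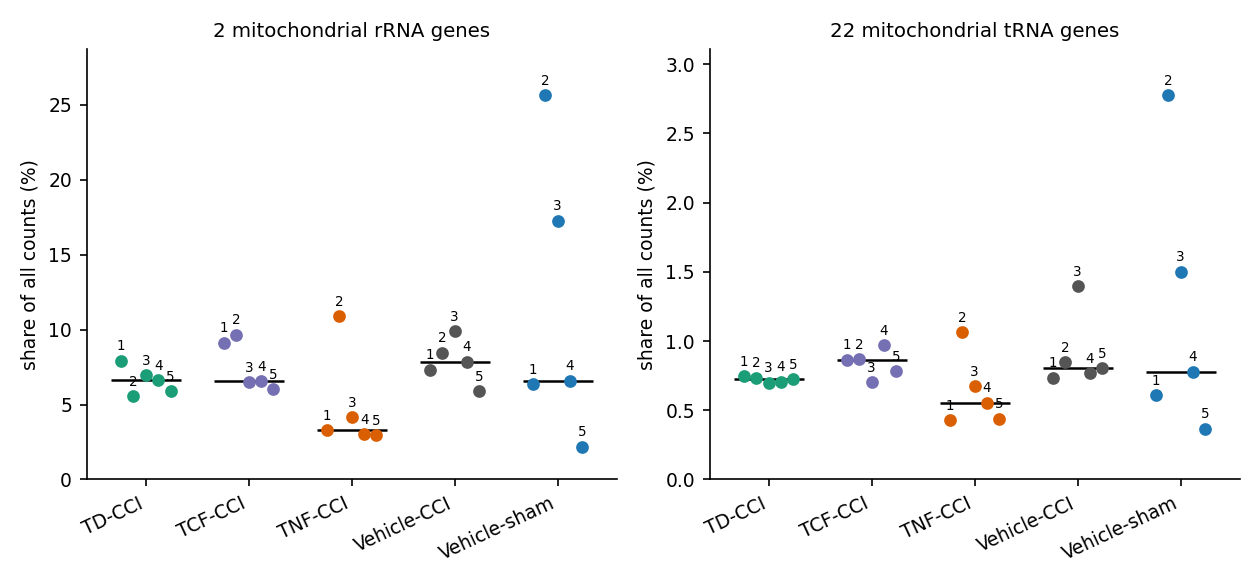
Share of all counts (%) on the 2 rRNA genes (left) and on the 22 tRNA genes (right) in each library, by group. Points are libraries, numbered by replicate, and black lines are group medians. Vehicle-sham 2 and 3 hold 25.6% and 17.3% on the rRNA genes, above every CCI library, and Vehicle-sham 5 holds 2.18%, below every CCI library.

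In the edgeR fit both rRNA genes fell in all CCI groups together (the mean of the 4) over sham. mt-Rnr1 averaged 21174 ± 6422 CPM over the 20 CCI libraries (SD) and 45629.9 ± 43008 CPM over the 5 sham libraries. Its log2 fold change was -1.14 ± 0.32 (SE), with an edgeR adjusted p of 0.0376. It was -1.32 ± 0.39 for mt-Rnr2, with 44083 ± 17178 CPM in CCI and 108156 ± 112029 CPM in sham, and an edgeR adjusted p of 0.045. All 20 CCI libraries lay below the sham mean of both genes and 0 below every sham library. Without Vehicle-sham 2 the values were -0.43 and -0.57 and passed no threshold (edgeR adjusted p = 0.53 for both), and without Vehicle-sham 2 and 3 they lay above 0, at 0.17 and 0.39. For TNF-CCI over sham the fit gave mt-Rnr1 at -1.66 ± 0.44 (adjusted p = 0.0427) and mt-Rnr2 at -1.74 ± 0.55 (adjusted p = 0.0768), so that mt-Rnr1 passed and mt-Rnr2 did not. Those 2 values were -0.35 and -0.02 without Vehicle-sham 2 and 3, and did not pass (edgeR).

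The other comparisons gave no call for either rRNA gene by edgeR. TD-CCI over sham had mt-Rnr1 at -1.07 ± 0.44 (adjusted p = 0.235) and mt-Rnr2 at -1.38 ± 0.54 (adjusted p = 0.227). TCF-CCI over sham had mt-Rnr1 at -1.03 ± 0.43 (adjusted p = 0.223) and mt-Rnr2 at -1.11 ± 0.54 (adjusted p = 0.278). Vehicle-CCI over sham had mt-Rnr1 at -0.80 ± 0.43 (adjusted p = 0.44) and mt-Rnr2 at -1.05 ± 0.54 (adjusted p = 0.42). These comparisons share the sham libraries, so their values are not independent of each other. Among the injured groups, whose fold changes do not use the sham libraries though their p-values rest on a spread estimated over all groups, TNF-CCI over Vehicle-CCI had mt-Rnr1 at -0.86 ± 0.43 (adjusted p = 1) and mt-Rnr2 at -0.69 ± 0.54 (adjusted p = 1). TD-CCI over Vehicle-CCI had mt-Rnr1 at -0.27 ± 0.43 (adjusted p = 1) and mt-Rnr2 at -0.33 ± 0.53 (adjusted p = 1), and TCF-CCI over Vehicle-CCI had mt-Rnr1 at -0.23 ± 0.43 (adjusted p = 1) and mt-Rnr2 at -0.06 ± 0.53 (adjusted p = 1), with edgeR in each case. Without TNF-CCI 2 the TNF-CCI over Vehicle-CCI value of mt-Rnr2 was -1.37, the lowest of its 25 fits that left out 1 library.

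The 2 rRNA genes moved together over libraries, while their ratio varied within every group. mt-Rnr2 counts were 1.59 to 3.11 times mt-Rnr1 counts over the 25 libraries. The ratio was 2.37, 1.66, 1.86, 1.77 and 1.9 in TD-CCI libraries 1 to 5, 2.57, 2.54, 1.95, 1.89 and 2.18 in TCF-CCI and 1.83, 3.11, 1.76, 1.62 and 1.82 in TNF-CCI. It was 2.39, 2.24, 2.09, 1.59 and 1.85 in Vehicle-CCI and 1.87, 2.44, 2.8, 1.76 and 1.7 in Vehicle-sham. TNF-CCI 2 was highest and Vehicle-CCI 4 lowest, and all 5 groups overlapped. On the log2 scale the ratio was 1.01 ± 0.26 over the 20 CCI libraries (SD) and 1.05 ± 0.32 over the 5 sham libraries, a difference of -0.04 (exact two-sided permutation p = 0.746). The differences of the 8 comparisons ran from -0.13 to 0.13, with exact permutation p-values from 0.373 to 0.921, each 0.921 after Benjamini-Hochberg adjustment over the 8. The smallest p that 5 against 5 libraries allow is 0.00794.

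Over the 25 libraries log2 CPM of mt-Rnr2 and mt-Rnr1 correlated with Pearson r = 0.97 and Spearman rho = 0.925, with permutation p = 1e-05 for each (2e-05 after adjustment over 2 correlations), the smallest that 100000 permutations can give. Without Vehicle-sham 2 and 3, the 2 libraries farthest from the median, r was 0.939. The summed level of 1424 taste, vomeronasal and olfactory receptor genes, a group little used outside sensory tissue, ran from 57.7 to 151 CPM, highest in Vehicle-sham 2. It correlated with mt-Rnr2 at r = 0.576 (permutation p = 0.00231) and rho = 0.59 (permutation p = 0.00225), which Benjamini-Hochberg adjustment over the 2 correlations left unchanged. Without the same 2 libraries r was 0.449 (permutation p = 0.0318), and with values centred on group means 0.566 (permutation p = 0.00259). With library totals in place of TMM scaling r was 0.317 (permutation p = 0.123) and no longer passed, while rho was 0.516 (permutation p = 0.00878) and did. Both measures share each library's depth and scaling factor.

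**Figure D3:**
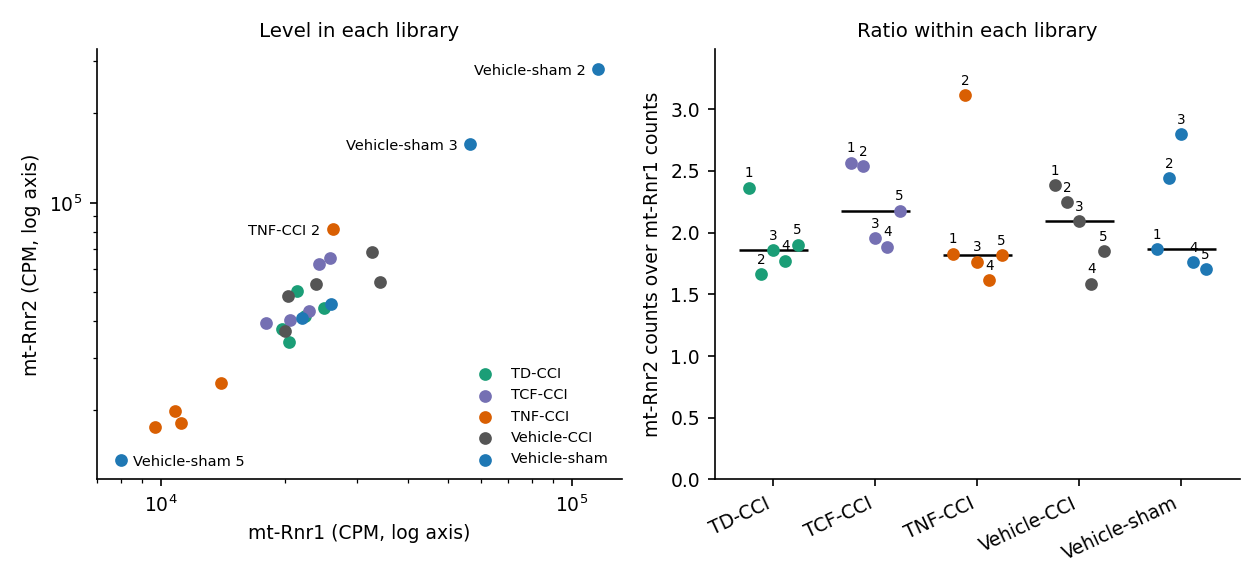
The 2 rRNA genes. Left, mt-Rnr2 against mt-Rnr1 (CPM, log axes), 1 point per library, coloured by group; right, mt-Rnr2 counts over mt-Rnr1 counts in each library, with group medians as black lines. Vehicle-sham 2 and 3 lie above all others on the left, and TNF-CCI 2 has the highest ratio, 3.11.

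The 22 tRNA genes together held 0.775 ± 0.211% of counts in the 20 CCI libraries (SD) and 1.21 ± 0.973% in the 5 sham libraries. By group the share was 0.722 ± 0.0198% in TD-CCI, 0.838 ± 0.0997% in TCF-CCI, 0.632 ± 0.261% in TNF-CCI and 0.91 ± 0.275% in Vehicle-CCI (SD, n = 5 each). TD-CCI varied least, from 0.698% to 0.746%, and Vehicle-sham most, from 0.368% to 2.77%. The medians were 0.741% in CCI and 0.778% in sham, and 12 of 20 CCI libraries lay below the sham median. Trns1 alone took 52.6% to 71.1% of a library's tRNA counts. The 8 minus-strand tRNA genes, Trns1 among them, took 66.8% to 82.6%.

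The 3 tRNA genes of highest mean CPM were Trns1, Trnm and Trne. Trns1 had 4255, 4504, 3792, 4542 and 4161 CPM in TD-CCI libraries 1 to 5 and 5228, 4912, 3854, 5988 and 4362 CPM in TCF-CCI libraries. It had 2376, 7486, 4037, 3355 and 2484 CPM in TNF-CCI and 4140.2, 5011, 9655, 5108 and 4824 CPM in Vehicle-CCI, against 3337, 24639.5, 12332, 5253 and 1922 CPM in Vehicle-sham libraries. Vehicle-sham 2 and 3 were highest, Vehicle-CCI 3 came next, and Vehicle-sham 5 was lowest. Trnm spanned 514 to 756 CPM (median 740.1) in TD-CCI, 669.8 to 1059.6 CPM (median 733) in TCF-CCI, 403 to 771 CPM (median 615) in TNF-CCI and 564 to 949 CPM (median 764) in Vehicle-CCI, against 486 to 2600.3 CPM (median 809.6) in Vehicle-sham. Trne spanned 454 to 509 CPM (median 467) in TD-CCI, 489.8 to 656 CPM (median 549) in TCF-CCI, 274 to 566 CPM (median 303) in TNF-CCI and 473 to 985 CPM (median 573) in Vehicle-CCI, against 307 to 3844 CPM (median 556) in Vehicle-sham. In both genes every CCI group overlapped the sham libraries. Trnf, Trnq, Trna and Trnv had mean levels of 0.349, 0.669, 1.33 and 1.68 CPM over all libraries. They rested on median counts of 8, 19, 36 and 45 reads per library, so that counting error weighs on them. The other 18 tRNA genes had median counts of 228 (Trns2) to 153124 (Trns1).

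In the CCI groups together over sham, 18 of 24 members fell by edgeR (adjusted p under 0.05), both rRNA genes and 16 of 22 tRNA genes, against 3.68% of all 21064 genes tested that were called lower. All 24 members passed the filter on low counts and all lay below 0, with a median log2 fold change of -1.16, beside 0.01 over all genes tested. At an unadjusted p under 0.05, 23 of 24 were lower, against 15% of all genes. The members share libraries and scaling, and Vehicle-sham 2 was the highest library in all 24. These counts are therefore not counts of independent results. Trnt, the threonine tRNA, averaged 32.7 ± 12.4 CPM over the CCI libraries (SD, n = 20) and 91.9 ± 116 CPM over the sham libraries (n = 5), and its fold change on the log2 scale was -1.55 ± 0.34 (SE), with an edgeR adjusted p of 0.0222. Trnc, the cysteine tRNA, had the largest value, at -2.01 ± 0.46 (adjusted p = 0.024), with 56.7 ± 27.1 CPM in CCI and 227 ± 361 CPM in sham. The glycine tRNA Trng stood at -1.50 ± 0.35 (adjusted p = 0.0243), the proline tRNA Trnp at -1.85 ± 0.44 (0.0246) and Trne at -1.32 ± 0.32 (0.0246). The lysine tRNA Trnk stood at -0.75 ± 0.19 (adjusted p = 0.0315), the arginine tRNA Trnr at -1.09 ± 0.28 (0.0323), the isoleucine tRNA Trni at -1.01 ± 0.27 (0.035) and the histidine tRNA Trnh at -0.76 ± 0.21 (0.035). Trnm also passed, at -0.81 ± 0.23 (adjusted p = 0.0392), while Trns1, at -1.03 ± 0.33, did not pass (0.0611). Trnd, Trnf, Trnn, Trns2 and Trnw did not pass either, with adjusted p from 0.0538 to 0.272. The CCI and sham libraries overlapped in all 24 members, and the CCI median lay within the sham range in 24 of 24.

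Vehicle-sham 2 and 3 carried these calls, as they did the calls over all genes. Without Vehicle-sham 2, edgeR called 0 of 24 members, 21 of 24 lay below 0 and the median was -0.34. Calls over all genes fell from 1248 to 14 in that fit. Without Vehicle-sham 2 and 3 edgeR called 0 of 24 members and 0 of all genes. The loss of calls is therefore not particular to the members. Of the members, 0 of 24 reached an unadjusted p under 0.05 in that last fit. Then 22 of 24 lay above 0, with a median of 0.17, and Trnq and Trns2 were the 2 below 0. With limma voom, which down-weights libraries of high spread, 0 of 24 were called and 1 reached an unadjusted p under 0.05 (median -0.14), while DESeq2 called 21. Of all genes, limma voom called 3.12% lower and DESeq2 6.67%. Leaving out Vehicle-sham 3 alone left 6 calls among the members, beside 671 over all genes. The count also fell to 11, 9, 10, 7, 9, 9, 7, 10 and 9 without TD-CCI 1, TD-CCI 3, TCF-CCI 1, TCF-CCI 3, TNF-CCI 1, TNF-CCI 5, Vehicle-CCI 1, Vehicle-CCI 2 or Vehicle-CCI 5, with all 24 members still below 0. In these same fits the calls over all genes also fell, from 1248 to between 634 (without TCF-CCI 3) and 877 (without Vehicle-CCI 2). With library totals in place of TMM scaling 1 member was called, and the median of all genes moved to 0.24 and that of the members to -0.75.

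**Figure D4:**
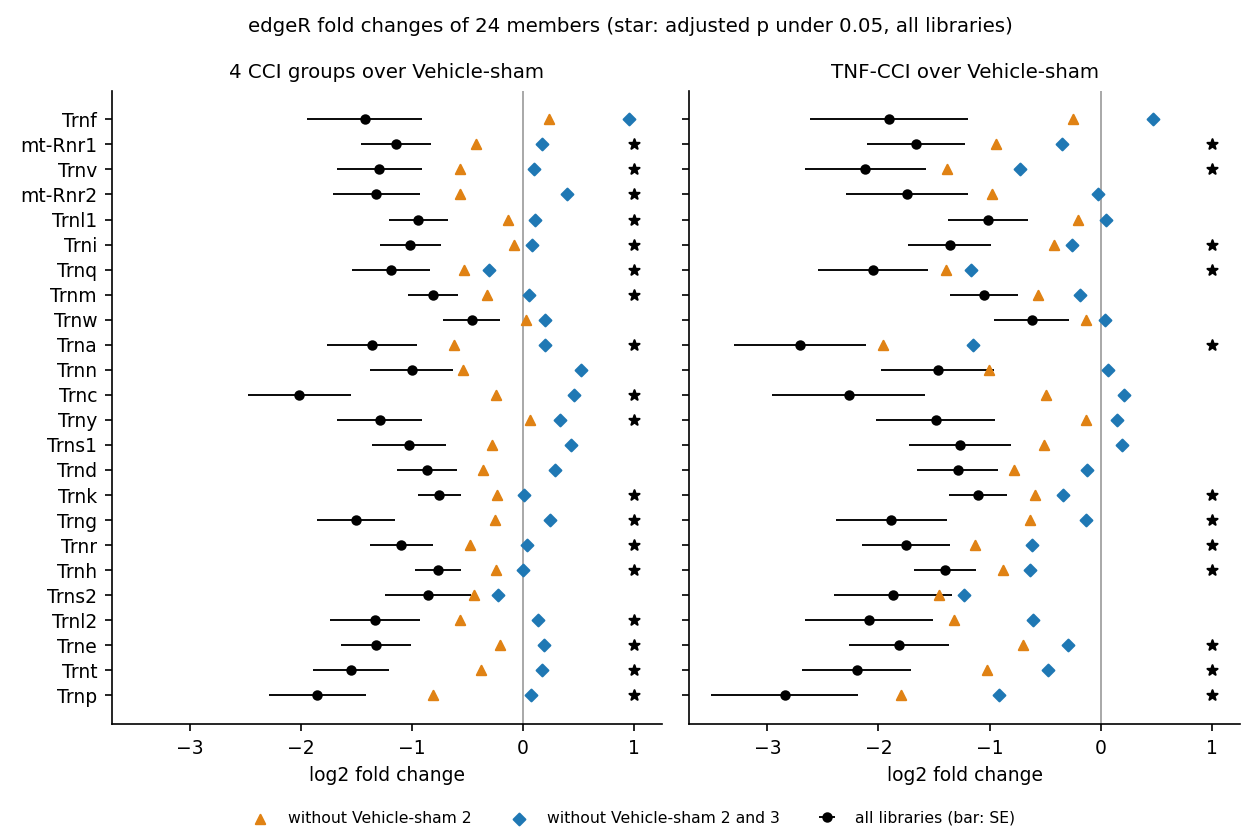
edgeR log2 fold changes of the 24 members, for the 4 CCI groups together (left) and for TNF-CCI (right) over Vehicle-sham. Black points with SE bars use all libraries, orange triangles leave out Vehicle-sham 2, and blue diamonds leave out Vehicle-sham 2 and 3; stars mark an adjusted p under 0.05 with all libraries. On the left the blue diamonds lie above 0 for 22 of 24 members, and on the right below 0 for 17 of 24.

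TNF-CCI had the lowest mean of the 4 injured groups in 23 of 24 members, Trnl1 being lower in TD-CCI. Over sham, edgeR called 12 of 24 members, mt-Rnr1 and 11 tRNA genes, all lower, against 0.864% of all genes called lower, and 23 of 24 at an unadjusted p under 0.05, against 10.6%. The members' median was -1.75, beside 0.01 over all genes. Trnh had 38.5, 52.4, 33.4, 30.5 and 39.1 CPM in TNF-CCI libraries 1 to 5, against 63.6, 224, 107, 73.8 and 46 CPM in Vehicle-sham, and its log2 fold change was -1.41 ± 0.28 (SE) with an edgeR adjusted p of 0.0198. 4 of 5 TNF-CCI libraries lay below every sham library in this gene. Trna stood at -2.71 ± 0.60 (adjusted p = 0.0231), Trnt at -2.20 ± 0.49 (0.0236), Trnr at -1.75 ± 0.40 (0.0242), Trnp at -2.84 ± 0.66 (0.0269) and Trnk at -1.11 ± 0.26 (0.0285). Trnq stood at -2.05 ± 0.49 (0.0318), Trne at -1.81 ± 0.45 (0.0334), Trnv at -2.12 ± 0.54 (0.0386) and Trng at -1.88 ± 0.50 (0.0426), and Trni also passed (0.0498). Of the other tRNA genes of highest level, Trns1 at -1.27 ± 0.46 (0.115) and Trnm at -1.05 ± 0.31 (0.0603) did not pass.

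This count, like that over all genes, depended on single libraries of both groups. edgeR called 0 members without TNF-CCI 1, TNF-CCI 5 or Vehicle-sham 4, 1 without Vehicle-sham 2, 2 without Vehicle-sham 3, 4 without TNF-CCI 3 and 7 without TNF-CCI 4. It called 20 without TNF-CCI 2 and 22 without Vehicle-sham 5. Over all genes it called 542 with all libraries, and 0 without TNF-CCI 1, TNF-CCI 5 or Vehicle-sham 4. Where 0 genes were called, 0 members says nothing particular about them. Calls over all genes were 287 and 174 without Vehicle-sham 2 or 3, and 322 and 580 without TNF-CCI 3 or 4. They were 1563 without TNF-CCI 2 and 1107 without Vehicle-sham 5. All 24 members lay below 0 in each of these fits. Without Vehicle-sham 2 and 3 the count was 0 for members and 0 over all genes. Then 5 of 24 members were at an unadjusted p under 0.05 and 17 of 24 below 0, with a median of -0.28. Without TNF-CCI 3 and 4, which split their tRNA counts apart, 1 member was called, beside 584 of all genes. All 24 members lay below 0 in that fit (median -1.51). DESeq2 called 19 of 24 members and limma voom 6. An edgeR fit of the TNF-CCI and sham libraries alone called 0 of 23 members, 19 of them at an unadjusted p under 0.05. Shares of all genes that were lower are not given for these other fits and tools.

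In the other groups over sham edgeR called 0 members. In TD-CCI all 24 lay below 0 with a median of -1.14, and 21 reached an unadjusted p under 0.05 and were lower, against 9.66% of all genes; 0% of all genes were called lower after adjustment. DESeq2 called 1 member there and limma voom 0. The member of smallest p was Trnt, at -1.65 ± 0.48 (adjusted p = 0.16). In TCF-CCI all 24 lay below 0 with a median of -0.91, and 11 reached an unadjusted p under 0.05, against 11.7% of all genes, while 0.0142% of all genes were called lower after adjustment. There DESeq2 and limma voom called 0 members, and Trng had the smallest p, at -1.46 ± 0.49 (adjusted p = 0.171). In Vehicle-CCI all 24 lay below 0 with a median of -0.83, and 10 reached an unadjusted p under 0.05, against 6.02% of all genes, with 0% called lower after adjustment. DESeq2 and limma voom called 0 members, and Trnc had the smallest p, at -1.84 ± 0.68 (adjusted p = 0.258). These counts fell to 0 in all 3 comparisons without Vehicle-sham 2. The TCF-CCI count was 7, 7 and 6 without TCF-CCI 1, 3 or 5, and 19 without Vehicle-sham 5. The Vehicle-CCI count was 4, 2 and 4 without Vehicle-CCI 1, 2 or 5, and 17, 17 and 21 without Vehicle-sham 1, 4 or 5. Shares of all genes are not given for these fits with libraries left out, nor for the DESeq2 and limma voom counts. Those counts lack a background here and are not read as particular to the members. Where DESeq2 or limma voom called a number of all genes unlike that of edgeR, it is given further on. Without Vehicle-sham 2 and 3, 0 members were lower at an unadjusted p under 0.05 in these comparisons, while 3 were higher in Vehicle-CCI, 1 in TCF-CCI and 0 in TD-CCI. The medians then lay above 0, at 0.16 in TD-CCI, 0.44 in TCF-CCI and 0.46 in Vehicle-CCI, with 2, 1 and 0 members below 0.

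Between supplements and vehicle within the injured groups, edgeR called 0 members and 0 genes in each comparison, so 0% of all genes were called lower. In TNF-CCI over Vehicle-CCI all 24 members lay below 0, with a median of -0.74, beside 0.00 over all genes. 8 of 24 reached an unadjusted p under 0.05 and were lower, against 1.77% of all genes, and Trna had the smallest adjusted p, at -2.08 ± 0.59 (adjusted p = 0.967). Trna had 0.39, 0.786, 0.237, 0.128 and 0.289 CPM in TNF-CCI libraries 1 to 5, against 1.38, 1.61, 1.77, 1.77 and 1.19 CPM in Vehicle-CCI libraries, without overlap, and rested on few reads. Trnh had 38.5, 52.4, 33.4, 30.5 and 39.1 CPM in TNF-CCI, against 56.1, 65.5, 84.2, 82.1 and 63.8 CPM in Vehicle-CCI, again without overlap, at -0.86 ± 0.28 (adjusted p = 1). The other 6 were Trnq, Trns2, Trnp, Trnr, Trnt and Trnv, at -0.88 (Trnr) to -1.50 (Trnp). Trnk was the only other member without overlap in this comparison. The share of all genes without overlap is not given here, nor is it for TD-CCI over Vehicle-CCI below. Lack of overlap is therefore not read as particular to these members. Without TNF-CCI 3 and 4, 3 of 24 reached an unadjusted p under 0.05, and 24 of 24 lay below 0 (median -0.67). That count was 14 without TNF-CCI 2, 5 without TNF-CCI 1, 3 or 5, 4 without TNF-CCI 4, 4 and 5 without Vehicle-CCI 3 and 4, 14 without Vehicle-sham 2 and 15 without Vehicle-sham 2 and 3, with all 24 members below 0. The sham libraries enter here through the spread that all groups share. DESeq2 gave 9 members at an unadjusted p under 0.05 and limma voom 18, and both called 0 members. The 1.77% of all genes belongs to the edgeR fit of all libraries. Shares for the other tools and for the fits with libraries left out are not given here, so those counts lack a background. In TD-CCI over Vehicle-CCI the median was -0.31 with all 24 below 0 and 0 at an unadjusted p under 0.05 by all 3 tools, against 0.76% of all genes. Trnd, the aspartate tRNA, had 37.6, 32.3, 37.4, 32.7 and 36 CPM in TD-CCI libraries 1 to 5, against 46.4, 39.7, 60.3, 47.6 and 37.9 CPM in Vehicle-CCI libraries, without overlap, at -0.40 ± 0.36 (adjusted p = 1). In TCF-CCI over Vehicle-CCI 12 of 24 lay below 0, with a median of -0.01, and 0 reached an unadjusted p under 0.05 by all 3 tools, against 0.793% of all genes.

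How a library split its tRNA counts over the 22 genes varied in single genes and stood apart in 3 libraries. Over the other 22 libraries a gene's share varied from 1.35-fold (Trns1) to 6.39-fold (Trnf), with 4.1-fold for Trnc, 3.27-fold for Trnn and 2.86-fold for Trnw. Trnf, Trnq, Trna and Trnv, at 3.7-fold or more, rest on few reads. The log2 shares of a library correlated with the median of the other libraries at r = 0.982 to 0.998 across the 22 genes in these 22 libraries, a measure that the large differences between genes keep high. It was lower in the 3 others, TNF-CCI 3 (0.946), TNF-CCI 4 (0.95) and TD-CCI 5 (0.976), singled out after the values were seen and described with no test. In both TNF-CCI 3 and TNF-CCI 4, Trna, Trnn, Trnr, Trns2, Trnl2 and Trnp took a lower share than in any of the 22 libraries, and Trnw a higher one. Trns2, the second serine tRNA, took 0.00295% and 0.00617% in TNF-CCI 3 and 4, against 0.0467% to 0.146% in the 22 libraries (median 0.0877%). Its neighbour Trnl2, a leucine tRNA, took 0.0404% and 0.0522% in TNF-CCI 3 and 4, against 0.248% to 0.46% in the 22 libraries (median 0.357%). Trnh, which lies directly before Trns2, was at 0.535% and 0.566%, inside the range of the 22 libraries. Trnp took 0.505% and 0.396% in TNF-CCI 3 and 4, against 3.06% to 6.91% in the 22 libraries (median 4.21%), while Trnt, 1 base before Trnp and on the other strand, was at 0.385% and 0.295%, also inside that range. Trnr took 0.459% and 0.562% in TNF-CCI 3 and 4, against 0.955% to 1.87% in the 22 libraries (median 1.39%). In CPM, Trns2 stood at 0.184 and 0.333 in those 2 libraries, against 3.32, 6.65 and 3.55 in TNF-CCI 1, 2 and 5. In all, 8 of 22 tRNA genes in TNF-CCI 3 and 7 of 22 in TNF-CCI 4 had a share below every one of the 22 libraries, among them Trnv and Trne in TNF-CCI 3 and Trnc in TNF-CCI 4.

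TD-CCI 5 differed in a partly different set of genes. In the cluster Trnw, Trna, Trnn, Trnc and Trny, the 4 minus-strand genes were low. Trna took 0.00332%, against 0.00711% to 0.03% in the 22 libraries, Trnn 0.131%, against 0.188% to 0.613%, Trnc 0.302%, against 0.491% to 2.01% and Trny 0.461%, against 0.572% to 1.47%. Trnw, the tryptophan tRNA on the plus strand beside them, was high at 2.36%, against 0.568% to 1.62%. Outside this cluster Trnv was low, at 0.00427%, against 0.00887% to 0.0328%, and Trnq high, at 0.0123%, against 0.00187% to 0.0115%. TD-CCI 5 had 12.8 Trnc counts per 100 Trnw counts, against 35.9 to 301 in the 22 libraries. TNF-CCI 3 and 4 shared part of this pattern, with 20.2 and 19.4 Trnc per 100 Trnw counts and Trnw shares of 2.48% and 2.25%. Trns2, Trnl2 and Trnp of TD-CCI 5 lay inside the range of the 22 libraries, at 0.113%, 0.413% and 3.12%. The Trns1 share of these 3 libraries was 59.5% in TD-CCI 5, 64.6% in TNF-CCI 3 and 62.2% in TNF-CCI 4, near the median of 61.1%. Over all libraries the share of Trns2 spanned 49.5-fold and that of Trnp 17.5-fold, against 1.35-fold for Trns1.

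**Figure D5:**
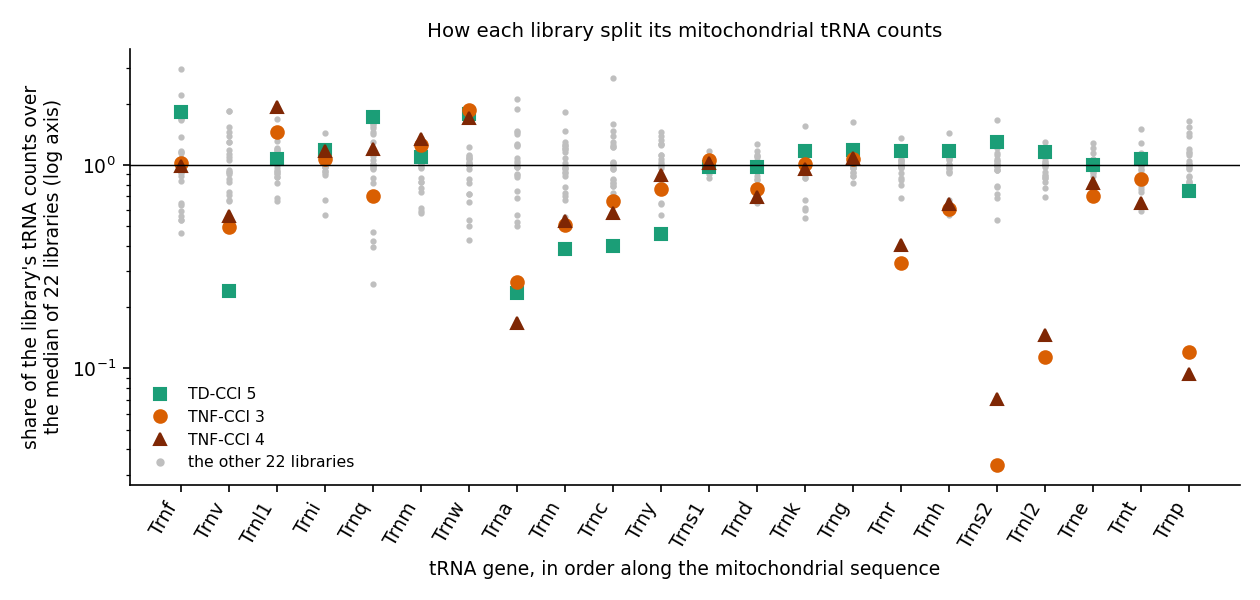
Share of a library's tRNA counts on each tRNA gene, divided by the median of 22 libraries (log axis), in gene order along the mitochondrial sequence. Coloured symbols are TD-CCI 5, TNF-CCI 3 and TNF-CCI 4, and grey points are the other 22 libraries. In TNF-CCI 3 and 4, Trns2, Trnl2 and Trnp lie at 0.0336 to 0.146 times that median.

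Members differed in how closely they followed mt-Rnr2 over the 25 libraries. Spearman's rho of CPM was 0.925 for mt-Rnr1, and among the tRNA genes highest for Trnp (0.915), Trnd (0.915) and Trnc (0.907). It was 0.83 for Trns1 and lowest for Trnw (0.208), Trnm (0.358) and Trnq (0.414). Outside the mitochondrial sequence, the 5 genes most alike mt-Rnr2 by rho, of 16885 with a mean of at least 1 CPM, were Ttpa (0.944), Rps27a (0.942), Zc3h6 (0.941), LOC100911847 (0.938) and Lsm5 (0.935). Ttpa encodes the tocopherol transfer protein, Rps27a a fusion of ubiquitin and a cytosolic ribosomal protein, and Lsm5 a subunit of an RNA-binding ring. All 5 had a higher rho with mt-Rnr2 than any tRNA gene or mt-Rnr1 had. They were picked as the highest of 16885, which by itself favours high values. These correlations describe libraries that share depth and scaling, and carry no test.

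Of 99 tested nuclear genes that make, process and use these RNAs, in 6 lists, edgeR called 4 lower and 0 higher in the CCI groups together over sham. That is 4.04%, near the 3.68% of all genes called lower, so this adjusted count says nothing particular about them. With edgeR at an unadjusted p under 0.05, 32 of 99 were lower and 0 higher, beside 15% of all genes lower. DESeq2 called 13 of 99 lower after adjustment and limma voom 1, beside 6.67% and 3.12% of all genes. Of 14 genes of mitochondrial transcription and replication, edgeR called 0, and 11 lay below 0 (median -0.15). At an unadjusted p under 0.05, edgeR had 5 lower and 0 higher of 14, beside 15% of all genes lower. After adjustment DESeq2 called 2 lower and limma voom 1, beside 6.67% and 3.12% of all genes. The closest were Tfb1m, the methyltransferase of the small-subunit rRNA, at -0.24 ± 0.08 (adjusted p = 0.0731), and the termination factor family member Mterf3 at -0.24 ± 0.08 (adjusted p = 0.0793). Polrmt, the mitochondrial RNA polymerase, stood at 0.25 ± 0.23 (adjusted p = 0.533), and Tfam, which packages mitochondrial DNA and activates its promoters, at -0.32 ± 0.14 (adjusted p = 0.159). Polrmt had 28.3 to 62.1 CPM in CCI libraries (median 44.7), against 7.06 to 48.2 CPM in sham, where Vehicle-sham 2 was the lowest. Tfam had 18.8 to 29.1 CPM in CCI, against 18.1 to 48 CPM in sham, where Vehicle-sham 2 was the highest. The library with the most mitochondrial rRNA thus had the least Polrmt and the most Tfam mRNA among the sham libraries. Without Vehicle-sham 2 the values were 0.01 for Polrmt and -0.03 for Tfam.

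Of 21 genes of mitochondrial RNA processing, stability and decay, edgeR called 0, with a median of -0.07 and 11 below 0. At an unadjusted p under 0.05, edgeR had 6 lower and 0 higher of 21, beside 15% of all genes lower. After adjustment DESeq2 called 2 lower and limma voom 0, beside 6.67% and 3.12% of all genes. Trmt10c, a subunit of the enzyme that cuts and methylates tRNAs, stood at -0.46 ± 0.14 (adjusted p = 0.0553) and Slirp, an RNA-binding protein of mitochondria, at -0.97 ± 0.31 (adjusted p = 0.061). Slirp had 16.7 to 61 CPM in CCI, against 18 to 162 CPM in sham, with Vehicle-sham 2 the highest. Its partner Lrpprc, with which it stabilises mitochondrial mRNAs, stood at 0.10 ± 0.19 (adjusted p = 0.785), with 53.4 to 98.9 CPM in CCI, against 20.9 to 106 CPM in sham, and Vehicle-sham 2 the lowest. The partners thus lay at opposite ends of the sham group in that library. Without Vehicle-sham 2 and 3 Slirp was at 0.34 and Lrpprc at -0.24.

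Of 12 tested genes of rRNA modification and ribosome assembly (13 listed), 1 fell, Mettl15, a methyltransferase of the small-subunit rRNA, at -0.63 ± 0.18 (adjusted p = 0.0405), and the median was 0.04. Of 19 tested mitochondrial ribosomal protein genes (20 listed), 2 fell, Mrps7 at -0.51 ± 0.15 (adjusted p = 0.0441) and Mrpl15 at -0.49 ± 0.14 (adjusted p = 0.0458), 15 lay below 0 and the median was -0.28. Of 24 nuclear subunits of the respiratory complexes, 1 fell, Ndufb8 of complex I at -0.55 ± 0.16 (adjusted p = 0.0457), 23 lay below 0 and the median was -0.29. These counts, 1 of 12, 2 of 19 and 1 of 24, stand beside 3.68% of all genes called lower, and DESeq2 called 1, 3 and 5 lower in the same lists while limma voom called 0. By edgeR at an unadjusted p under 0.05, the 3 lists had 2 of 12, 9 of 19 and 9 of 24 lower and 0 higher, beside 15% of all genes lower. Of 9 regulators of mitochondrial biogenesis edgeR called 0 (median -0.01), with Esrrg at -0.36 ± 0.17 (adjusted p = 0.173) and Gabpa, a subunit of a factor that activates respiratory chain genes, at -0.24 ± 0.12 (adjusted p = 0.235). At an unadjusted p under 0.05, edgeR had 1 lower and 0 higher of 9, beside 15% of all genes lower. After adjustment DESeq2 called 0 lower and limma voom 0, beside 6.67% and 3.12% of all genes. In the single CCI groups over sham and in the supplements over vehicle edgeR called 0 genes of the 6 lists. Without Vehicle-sham 2 it called 0 in the mean of the 4 CCI groups as well, beside 14 of all genes. Vehicle-sham 2 had the highest sham level of Mettl15, Mrps7, Mrpl15 and Ndufb8. Without that library 23 of 24 respiratory subunits lay below 0 (median -0.19, beside 0.003 over all genes). Without Vehicle-sham 2 and 3, 21 of 24 did (median -0.22, beside 0.008 over all genes), while 2 of 24 mitochondrial members then lay below 0. These are counts of signs and medians, and the lists were not tested as sets. The share of all genes below 0 is not given for the fits with libraries left out.

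The authors' deposited tables gave the same signs for each injured group over control, with all 24 members below 0 in each of the 4 tables. In the authors' deposited table for TNF-CCI, 7 members had an adjusted p under 0.05, and in those for TD-CCI, TCF-CCI and Vehicle-CCI 0 had. The smallest in the authors' deposited table for TNF-CCI was Trna, at -2.77 ± 0.70 (adjusted p = 0.00481). That table had mt-Rnr1 at -1.70 ± 0.56 (adjusted p = 0.0648) and mt-Rnr2 at -1.78 ± 0.88 (adjusted p = 0.311). The authors' deposited values come from the same libraries as the fits above and add no independent sample.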

How the data were processed

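Gene counts were measured by RNA sequencing in 25 libraries of rat hippocampus, 5 in each of 5 groups, grouped by their labels. The authors deposited raw read counts per gene with gene length and position, as whole numbers, per the file headers. Per the submitters' processing notes the tools were DESeq2, featureCounts, Salmon and STAR, without versions, on mRatBN7.2. The authors deposited, per the file headers, a log2 fold change with its standard error (a score without fixed range) and p-values, raw and adjusted, for each CCI group over control. The lengths, an other unit (bases), are also the authors'. The sources used here give neither the strand setting nor the handling of reads that map to more than 1 place. Reads of nuclear copies of mitochondrial DNA can be assigned to either copy, so values of near-identical copies are uncertain.

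Of 34322 genes, 7 with empty cells were left out. Counts of all 25 libraries entered 1 edgeR 4.0.16 fit (R 4.3.3) with TMM factors, filterByExpr by group, the robust quasi-likelihood F test and Benjamini-Hochberg adjustment over the 21064 genes tested, with a threshold of 0.05. Levels are CPM after TMM, and CPM per kilobase divides them by the listed gene length. Ratios were tested by exact permutation, and correlations by permutation. Alternatives were other scalings, other filters on low counts, a replicate block, DESeq2 1.42.0, limma voom 3.58.1 with quality weights, a fit of the compared groups alone and leaving out each library. Fits without Vehicle-sham 2 and 3 and without TNF-CCI 3 and 4 were chosen after the data were seen. The members and gene lists were chosen with earlier results of these data known. By rule, both rRNA genes are named in every comparison, members that pass up to 10 by smallest p, the 3 tRNA genes of highest mean CPM, the called or 2 closest genes of each nuclear list with Polrmt, Tfam and Lrpprc, and the 5 genes most alike mt-Rnr2. Other members are named after their values were seen. Planned ratios and correlations with mitochondrial protein-coding genes were not run, since the rows used held 0 of them. Within groups, chi-square per degree of freedom between 2 libraries was 23.7 to 682, far more than counting error gives, so every library counts as 1 sample and precision rests on the spread between them. Tested on simulated data for Vehicle-CCI over Vehicle-sham with 20870 genes, edgeR recovered 57 of 100 genes changed 2-fold and 96 of 100 changed 4-fold, with 9 false calls. The simulation drew each gene independently and held no library that stands apart over many genes, as Vehicle-sham 2 does. These rates therefore need not hold for the real libraries.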

Additional observations from a re-analysis of the deposited data

Results flagged for a closer look

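A library was singled out where the gap between it and the nearest of its group's other libraries took up most of the group's range (Dixon's test at its 95% critical value for 5 libraries). 135 groups of values were tested, 25 gave such a library, and chance gives about 1 in 20, or 6.75 here. The members share libraries and scaling, so these cases are not independent of each other.

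TNF-CCI 2 stood above the other TNF-CCI libraries in 11 measures. Its rRNA share was 10.9% and its ratio of mt-Rnr2 to mt-Rnr1 counts 3.11. mt-Rnr1 was at 26217 CPM and mt-Rnr2 at 81592 CPM. Trnv was at 1.26, Trnn at 44.4, Trnc at 127 and Trny at 142 CPM. Trnd was at 55.7, Trnl2 at 40.4 and Trne at 566 CPM.

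Vehicle-sham 2 stood above the other sham libraries in 8 tRNA genes. Trnf was at 2.73, Trnl1 at 708, Trni at 567 and Trnc at 867 CPM. Trny was at 602, Trng at 4171, Trne at 3844 and Trnt at 295 CPM. In the rRNA genes Vehicle-sham 3 was also high, and neither was singled out there.

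Vehicle-CCI 3 stood above its group with 1.4% of counts on tRNA genes, and with Trns1 at 9655, Trng at 1003 and Trne at 985 CPM. TD-CCI 1 was low in Trnm, at 514 CPM, and TCF-CCI 3 was low in Trns2, at 5.84 CPM. The part of tissue make-up or RNA quality in these values was not tested.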

How the results depend on the processing

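The called members kept their direction under the scalings, filters and tools tried except as follows, and the cause was not tested. Without Vehicle-sham 2 and 3 the members called in all CCI groups together over sham turned to mt-Rnr1 0.17, Trnv 0.10, mt-Rnr2 0.39, Trnl1 0.11, Trni 0.085, Trnm 0.052, Trna 0.19, Trnc 0.46, Trny 0.34, Trnk 0.012, Trng 0.24, Trnr 0.033, Trnh 0.0024, Trnl2 0.14, Trne 0.19, Trnt 0.17, Trnp 0.072 (log2). Trny was at 0.0085 with limma voom, and ran from -1.61 to 0.064 with single libraries left out, the highest without Vehicle-sham 2. In that comparison 18 members became 1 with library totals, 6 with a replicate block, 0 with limma voom and 0 without Vehicle-sham 2 and 3, and 0 to 22 when single libraries were left out. Its 1248 genes (472 higher, 776 lower) became 989 with library totals (921 higher, 68 lower), where the median of all genes moved to 0.24, 1299 with limma voom (642 higher, 657 lower), 2070 with no filter, 2414 with DESeq2, 0 without Vehicle-sham 2 and 3, and 14 to 2117 without single libraries.

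In TNF-CCI over sham 12 members became 19 (DESeq2), 6 (limma voom), 0 (only the groups compared), 0 (without Vehicle-sham 2 and 3), 1 (without TNF-CCI 3 and 4), 15 (replicate block) and 0 to 22 (single libraries left out). Its 542 genes became 1056 (library totals), 1190 (replicate block), 1455 (DESeq2), 969 (limma voom), 197 (only the groups compared), 0 (without Vehicle-sham 2 and 3) and 0 to 1563 (single libraries). TD-CCI over sham, with 0 genes and 0 members, gave 3 genes (library totals), 3 (scaling without mitochondrial genes), 1 (no filter), 45 (replicate block), 263 (DESeq2), 2 (limma voom), 139 (only the groups compared) and 0 to 4 (single libraries), and 1 member with DESeq2. TCF-CCI over sham, with 3 genes, gave 0 (library totals), 0 (no filter), 226 (DESeq2), 388 (limma voom), 1 (only the groups compared), 0 (without Vehicle-sham 2 and 3), 0 (without TNF-CCI 3 and 4) and 0 to 6 (single libraries). Vehicle-CCI over sham, with 0 genes, gave 1 (replicate block), 247 (DESeq2) and 0 to 368 (single libraries). TNF-CCI over Vehicle-CCI gave 1 gene with DESeq2.

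With single libraries left out, the difference in the log2 ratio of mt-Rnr2 to mt-Rnr1 ran, over sham, from -0.11 to 0.0689 for the 4 CCI groups, -0.21 to -0.0194 for TD-CCI, 0.019 to 0.20 for TCF-CCI, -0.24 to 0.0329 for TNF-CCI and -0.11 to 0.0641 for Vehicle-CCI. Over Vehicle-CCI it ran from -0.17 to -0.0218 for TD-CCI, 0.048 to 0.20 for TCF-CCI and -0.20 to 0.0397 for TNF-CCI, and passed in none of these. The correlation of mt-Rnr2 with the receptor genes was r = 0.317 and rho = 0.516 with library totals (permutation p = 0.123 and 0.00878), and the tRNA share of TD-CCI was 0.773% outside the rRNA genes. Same-numbered libraries of different groups deviated together at a correlation of -0.32 to 0.441 (median 0.123), with 27 of 50 pairs over 0.1. Of the 25 libraries, 11 were closest to a same-numbered library of another group. No pairing is stated, so the main fit does not pair libraries by number, and whether the numbers mark pairs was not tested. The fits with a replicate block, which moved some counts, are given above. Depth limits Trnf, Trnq, Trna and Trnv, which rest on few reads.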
